A study of Homo sapiens with 4 samples.

Results

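Genes for sugar, amino acid and lactate transporters were followed in OCI-AML3, a human acute myeloid leukemia line with a heterozygous NPM1 mutation, 3 days (72 hours) after transfection with sgRNA Ctrl (sgNeg in the labels) or with sgNPM1A, which targets mutant NPM1. Each condition had 2 libraries, 4 in all, made from bulk RNA of the transfected cells, and no source describes selection of edited cells or a clone. The paper names them biological replicates, but no source used here says that they came from separate cultures, so p-values measure only the spread between these libraries. The list of families was chosen with earlier results of these data known. Members were then taken by name. They were every protein-coding row of the count table with a symbol of solute carrier family SLC1A, SLC2A, SLC3A, SLC6A, SLC7A, SLC16A, SLC38A or SLC43A. This gave 83 genes of the 58037 rows, and 46 of them had enough counts to be tested. All cells shared the line's own DNMT3A and NRAS mutations. All groups shared the medium, which was a high-glucose RPMI with added non-essential amino acids in the paper and alpha-MEM in the labels, and both sources give serum at the same share.

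Solute carriers move nutrients across membranes without using ATP directly. The SLC2A proteins (GLUTs) let hexoses flow down their gradient, and the SLC16A proteins (MCTs) carry lactate, pyruvate and related acids together with protons. Amino acids enter through several systems: SLC1A5 and SLC38A proteins bring in glutamine with sodium, while light chains of the SLC7A family pair with the heavy chain SLC3A2 to exchange an intracellular amino acid for leucine, cystine or other cargo outside. Leukemic blasts are known for high glycolytic flux and for dependence on glutamine, and several of these carriers are known targets of MYC or of the amino acid response factor ATF4.

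Total counts per library lay between 25069484 and 28276391, and the members took 0.279% and 0.267% of them with sgRNA Ctrl and 0.244% and 0.248% with sgNPM1A. NPM1, the targeted gene, stood at 1319 and 1385 CPM (its count scaled to the library total after TMM normalization) with sgRNA Ctrl and at 1189 and 1132 CPM with sgNPM1A, with a log2 fold change (log2FC, sgNPM1A over sgRNA Ctrl) of -0.22 and an adjusted p of 0.0360. Its count adds up both alleles, so it cannot show how much of the mutant allele was lost. Of 7 myeloid markers, 5 were called higher and 0 lower by the thresholds given below, beside 10.5% and 10.3% of all tested genes. Their summed level was 476.5 and 442.4 CPM with sgRNA Ctrl and 2934 and 3678 CPM with sgNPM1A. LYZ had 270.6 and 215.1 CPM of these sums with sgRNA Ctrl and 2643 and 3367 CPM with sgNPM1A. Of 15 markers of T, B, erythroid, epithelial and fibroblast cells, 4 were tested and 3 of these fell (KRT18, COL1A2 and DCN). A further 6 had no count in any library (CD3D, CD3E, CD2, MS4A1, HBB and EPCAM). The sum of all 15 was 32.2 and 33.4 CPM with sgRNA Ctrl and 15.2 and 12 CPM with sgNPM1A. COL1A2 had 27.5 and 28.6 CPM of these sums with sgRNA Ctrl and 13.0 and 9.33 CPM with sgNPM1A. Both sums differed between the conditions, and their part in the results was not tested. In bulk RNA, a change in the share of cells of a kind and a change in RNA per cell cannot be told apart.

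With mtNPM1 KO, 8 of the 46 tested transporter genes rose and 10 fell. A gene was called when edgeR's quasi-likelihood test gave an adjusted p under 0.05 and its log2FC was at least 0.32 in either direction. Together these 18 were 39.1% of the tested members, beside 20.8% of all 15718 tested genes and 22.9% of the tested protein-coding genes. As the list was chosen with earlier results known, these shares are description only. By direction, 10.5% of all tested genes were called higher and 10.3% lower. The median log2FC of the members was 0.00, as was that of all tested genes, and 23 members had positive and 23 negative values, from -2.15 for SLC6A11 to 2.11 for SLC1A3. A log2FC of at least 1 was reached by 6 called members, 4 higher and 2 lower, and by 6.36% of all tested genes. In all 18 called genes the libraries of the conditions did not overlap. Such separation was seen in 34 of the 46 tested members (73.9%) and in 63.1% of all tested genes. With this design the smallest two-sided p of an exact permutation test is 0.333, so calls rest on the variance that edgeR shares between genes. Of 27 members that averaged 10 CPM or more, 11 were called, and of the 19 below that level, 7. A further 3 members passed the adjusted p but missed the fold threshold: SLC38A10, SLC2A5 and SLC3A2. The 37 members that were not tested had at most 9 counts in any library, and 17 of them had no count at all, which allows up to 3 counts, or between 0.108 and 0.118 CPM, and covers counting error only.

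**Figure D1:**
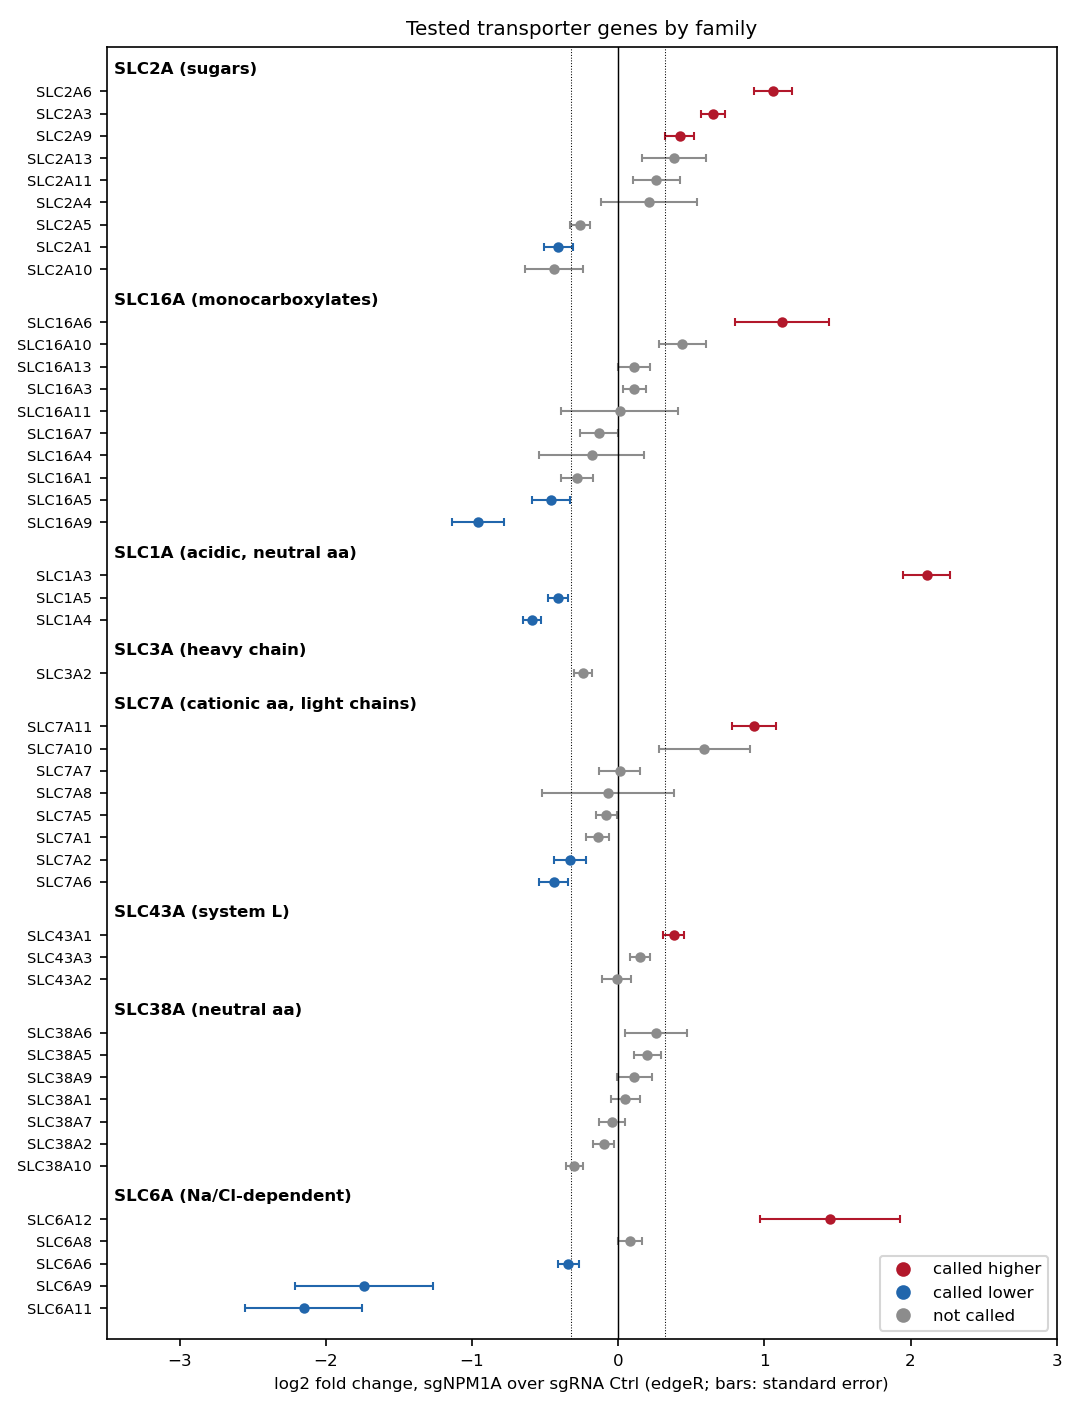
Log2 fold change (horizontal axis, sgNPM1A over sgRNA Ctrl) of the 46 tested transporter genes, grouped by family, with bars for the standard error from edgeR and dotted lines at the fold threshold. Red points are the 8 genes called higher, blue the 10 called lower and grey the rest. SLC1A3 lies farthest to the right and SLC6A11 farthest to the left, while the SLC38A family has no called gene.

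**Figure D2:**
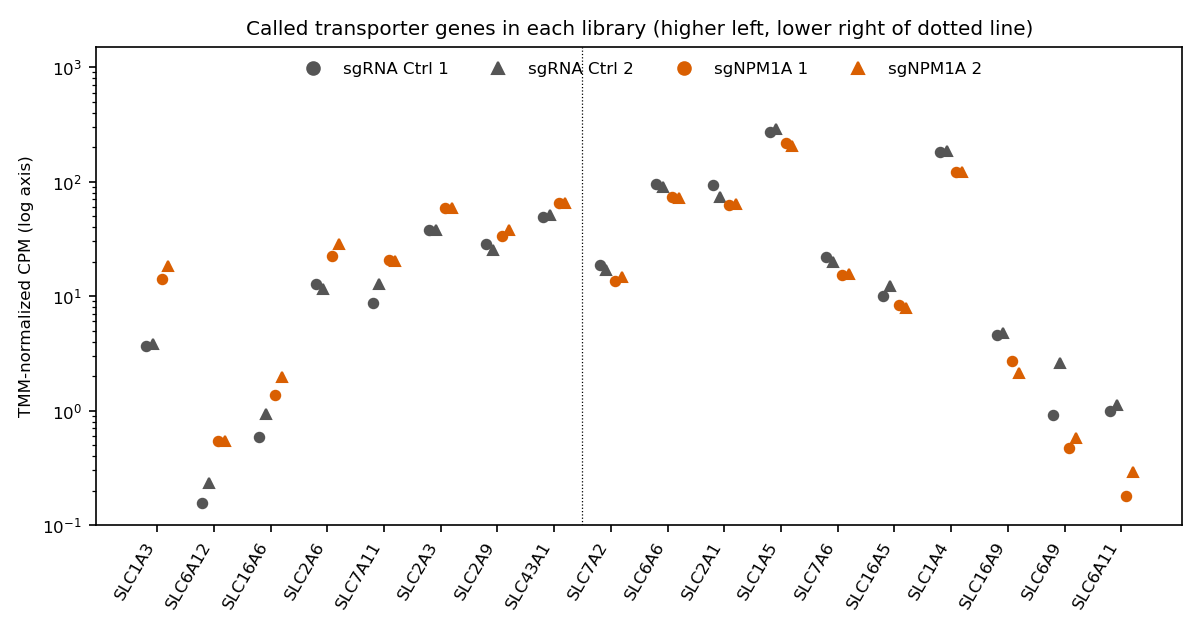
TMM-normalized CPM (log axis) of the 18 called genes in each of the 4 libraries, grey for sgRNA Ctrl and orange for sgNPM1A, circles for replicate 1 and triangles for replicate 2. Genes that rose stand left of the dotted line and genes that fell stand right of it, and in none of them do the grey and orange points overlap.

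In the sugar transporter family, SLC2A3, SLC2A6 and SLC2A9 rose, SLC2A1 fell, and the other 5 tested members were not called. SLC2A1 encodes GLUT1, the glucose carrier of most dividing cells (chr1:42925353-42958868 on GRCh38). Its level was 92.8 and 73.9 CPM with sgRNA Ctrl and 62.1 and 63.5 CPM with sgNPM1A. The sgNPM1A libraries were both lower, and the sgRNA Ctrl libraries differed from each other more than the sgNPM1A libraries did. The log2FC was -0.41 (SE, the standard error, 0.10, adjusted p = 0.0109, edgeR), a 1.33-fold decline. SLC2A3 encodes GLUT3, a glucose carrier of high affinity found in neurons and white blood cells (chr12:7919230-7936187). It stood at 37.5 CPM in both sgRNA Ctrl libraries and at 58.7 and 59.2 CPM in the sgNPM1A libraries. The replicates nearly coincided and the groups were far apart, with a log2FC of 0.65 (SE 0.08, adjusted p = 8.18e-05, edgeR). Of the 50-base words of its transcripts, 14.8% also occur elsewhere, among others in SLC2A14, but SLC2A14 had no more than 2 counts in any library.

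SLC2A6, which encodes GLUT6, a hexose carrier of lysosomal membranes, showed the largest rise of the family. Its values were 12.8 and 11.5 CPM with sgRNA Ctrl and 22.2 and 28.3 CPM with sgNPM1A. Both sgNPM1A libraries were higher, and they were further apart than the controls. The log2FC was 1.06 (SE 0.13, adjusted p = 0.000125, edgeR). SLC2A9, a urate carrier, went from 28.2 and 25.1 CPM to 33.5 and 37.7 CPM, a log2FC of 0.42 (adjusted p = 0.00877, edgeR). SLC2A5, the fructose carrier GLUT5, was the most abundant sugar transporter per length. It had 150.8 and 146.9 CPM with sgRNA Ctrl and 126.0 and 121.9 CPM with sgNPM1A. The groups did not overlap and the adjusted p was 0.0117 (edgeR), but at a fold of 1.20 it was not called. SLC2A13, SLC2A11, SLC2A4 and SLC2A10 had log2FC values from -0.44 to 0.38 and adjusted p-values from 0.130 to 0.680, and SLC2A13 was called higher without sgNPM1A replicate 1.

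Levels of different genes were set side by side as CPM per kb of canonical transcript. On this scale the SLC2A genes summed to 97.3 and 88.9 with sgRNA Ctrl and to 94.6 and 99.1 with sgNPM1A, so the family total overlapped between the conditions. Within it, the shares of SLC2A1, SLC2A3, SLC2A5, SLC2A6 and SLC2A9 did not overlap, while those of SLC2A11 and SLC2A13 did. SLC2A1 supplied 28.2% and 24.6% of the family's CPM per kb with sgRNA Ctrl and 19.4% and 18.9% with sgNPM1A, and SLC2A5 went from 37.9% and 40.4% to 32.6% and 30.1%. SLC2A3 supplied 10.1% and 11.0% with sgRNA Ctrl and 16.2% and 15.6% with sgNPM1A. The ratio of SLC2A3 to SLC2A1 in CPM per kb was 0.358 and 0.449 with sgRNA Ctrl and 0.836 and 0.825 with sgNPM1A. As SLC2A3 was higher and SLC2A1 lower in both sgNPM1A libraries, this ratio had to separate the conditions. Without sgRNA Ctrl replicate 1 the decline of SLC2A1 was no longer called (log2FC -0.24), and without sgNPM1A replicate 2 the rise of SLC2A9 was not (0.33). The rises of SLC2A3 and SLC2A6 were called in each alternative fit.

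**Figure D3:**
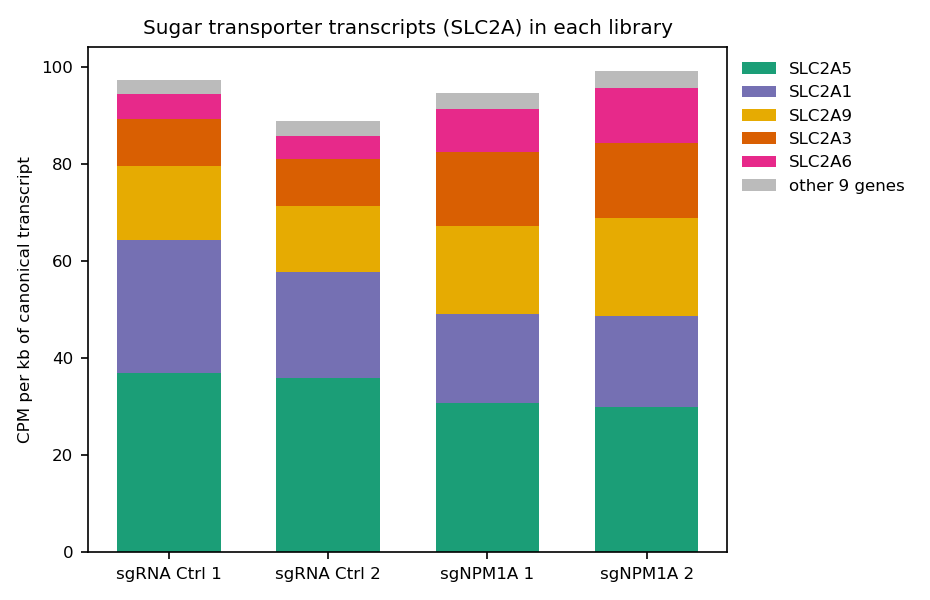
Stacked levels of the SLC2A genes in each library, in CPM per kb of canonical transcript. The totals lie between 88.9 and 99.1 in all 4 libraries, while the SLC2A1 and SLC2A5 segments are smaller and the SLC2A3, SLC2A6 and SLC2A9 segments larger in both sgNPM1A libraries.

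Among monocarboxylate transporters, SLC16A6 rose, SLC16A5 and SLC16A9 fell, and the carriers known for lactate were not called. SLC16A3, or MCT4, the lactate exporter of glycolytic cells, was the most abundant, with 277.5 and 238.5 CPM with sgRNA Ctrl and 271.3 and 284.6 CPM with sgNPM1A. The groups overlapped, and the log2FC was 0.11 (SE 0.08, adjusted p = 0.357, edgeR). SLC16A1, or MCT1, which carries lactate in either direction, had 72.4 and 54.8 CPM with sgRNA Ctrl and 50.2 and 54.2 CPM with sgNPM1A. Only a narrow gap parted sgRNA Ctrl replicate 2 from the sgNPM1A libraries. Its log2FC of -0.28 (SE 0.11) had an adjusted p of 0.0935 in edgeR's test, and it was called lower when sgRNA Ctrl replicate 2 was left out (-0.47, adjusted p = 0.00381). SLC16A7, or MCT2, had 8.30 and 7.49 CPM against 7.14 and 7.31 CPM (log2FC -0.13, adjusted p = 0.528, edgeR). SLC16A3 made up 75.7% and 74.9% of the family's CPM per kb with sgRNA Ctrl and 79.2% in both sgNPM1A libraries.

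SLC16A9 had the lowest adjusted p of this family (chr10:59650764-59710079). Its values were 4.56 and 4.79 CPM with sgRNA Ctrl and 2.69 and 2.13 CPM with sgNPM1A, with a wide gap between the groups. The log2FC was -0.96 (SE 0.18, adjusted p = 0.00300, edgeR). SLC16A5 fell from 10.0 and 12.2 CPM to 8.29 and 7.82 CPM (log2FC -0.46, adjusted p = 0.0260, edgeR). SLC16A6 rose from 15 and 24 counts to 38 and 54 counts, or from at most 0.927 CPM to at most 1.95 CPM (log2FC 1.12, SE 0.32, adjusted p = 0.0244, edgeR). Its pseudogene SLC16A6P1, among the genes that share 11.1% of its 50-base words, had at most 13 counts. Neither of these calls held in DESeq2, where the adjusted p was 0.104 for SLC16A5 and 0.159 for SLC16A6. The call of SLC16A5 was lost without sgRNA Ctrl replicate 2 (-0.32) or sgNPM1A replicate 2 (-0.42), and that of SLC16A6 without sgRNA Ctrl replicate 1 (0.83) or sgNPM1A replicate 2 (0.84). SLC16A10, a carrier of aromatic amino acids, had 4.29 and 3.71 CPM against 5.38 and 5.47 CPM (log2FC 0.44, adjusted p = 0.0629, edgeR). SLC16A4, SLC16A11 and SLC16A13 had log2FC values between -0.18 and 0.11.

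All 3 tested members of the SLC1A family were called, 1 higher and 2 lower. SLC1A3, which encodes EAAT1, an importer of glutamate and aspartate best known from glia (chr5:36596588-36688334), showed the largest rise of all transporter genes tested. It had 93 and 99 counts, or 3.66 and 3.82 CPM, with sgRNA Ctrl and 392 and 509 counts, or 14.1 and 18.3 CPM, with sgNPM1A. The groups stood far apart, at 3.74 ± 0.116 CPM against 16.2 ± 3.02 CPM (SD, n = 2 each). Its log2FC of 2.11 (SE 0.16, adjusted p = 3.67e-06, edgeR) was a 4.33-fold rise and ranked at place 107 from the top of the 15718 tested genes. It was called in each alternative, with log2FC values between 1.91 and 2.29 over the leave-one-out fits.

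SLC1A5 and SLC1A4 fell. SLC1A5 encodes ASCT2, a sodium-dependent carrier of glutamine (chr19:46774883-46788594), and had 272.7 and 286.1 CPM with sgRNA Ctrl and 215.8 and 203.4 CPM with sgNPM1A. The log2FC was -0.41 (SE 0.07, adjusted p = 0.000862, edgeR). SLC1A4 encodes ASCT1, which carries serine, alanine and cysteine (chr2:64988479-65023865), and had 182.9 and 183.8 CPM with sgRNA Ctrl and 121.4 and 121.7 CPM with sgNPM1A. Its replicates differed by little in either condition, and its log2FC was -0.59 (SE 0.06, adjusted p = 4.59e-05, edgeR). Both were called in each alternative fit. Of the 50-base words of SLC1A5 transcripts, 21.3% also occur in a gene without a symbol, ENSG00000275719, which had between 13 and 25 counts in a library. In CPM per kb the SLC1A family summed to 135.7 and 140.6 with sgRNA Ctrl and to 105.1 and 101.9 with sgNPM1A. SLC1A5 held 70.2% of that sum on average in either condition. SLC1A1, SLC1A2, SLC1A6 and SLC1A7 had at most 5 counts.

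The heterodimeric amino acid exchangers gave mixed results. SLC3A2, the heavy chain CD98hc that SLC7A5, SLC7A6, SLC7A7, SLC7A8, SLC7A10 and SLC7A11 need at the cell surface or can bind, was the most abundant member per length with sgRNA Ctrl, at 103.5 CPM per kb on average, against 87.5 with sgNPM1A, where SLC16A3 stood higher. It had 190.5 and 199.8 CPM with sgRNA Ctrl and 163.0 and 166.9 CPM with sgNPM1A. The groups did not overlap and the adjusted p was 0.0175 (edgeR), but the fold was 1.18 and the gene was not called. SLC7A5, or LAT1, which brings in leucine and other large neutral amino acids, had 359.1 and 346.7 CPM with sgRNA Ctrl and 326.0 and 342.2 CPM with sgNPM1A, a log2FC of -0.08 (SE 0.07, adjusted p = 0.418, edgeR). A miss of the threshold does not show that it stayed level, but its leave-one-out values kept between -0.11 and -0.04. The ratio of SLC7A5 to SLC3A2 in CPM per kb was 0.780 and 0.718 with sgRNA Ctrl and 0.828 and 0.848 with sgNPM1A.

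SLC7A11, the cystine importer xCT that feeds glutathione synthesis (chr4:138164097-138242349), was the only SLC7A gene that rose. It had 8.73 and 12.9 CPM with sgRNA Ctrl and 20.6 and 20.4 CPM with sgNPM1A. The control libraries were spread and the sgNPM1A libraries close together, without overlap. The log2FC was 0.93 (SE 0.15, adjusted p = 0.000958, edgeR), and it was called in each alternative fit, with values from 0.67 to 1.23 over the leave-one-out fits. Its antisense gene SLC7A11-AS1 had at most 4 counts. SLC7A6, or y+LAT2, which exchanges cationic for neutral amino acids, fell from 21.8 and 19.8 CPM to 15.2 and 15.6 CPM (log2FC -0.44, SE 0.10, adjusted p = 0.00821, edgeR). Its transcripts overlap other genes over 51.4% of their 50-base words, among them SLC7A6OS, with 241 and 205 counts with sgRNA Ctrl and 191 and 190 counts with sgNPM1A, and the strandedness of the counting is not given in the sources used here. Without sgNPM1A replicate 1 its adjusted p was 0.0539 (edgeR, log2FC -0.42). SLC7A2, or CAT2, an arginine carrier, had 18.8 and 16.8 CPM against 13.6 and 14.7 CPM, a log2FC of -0.33 (adjusted p = 0.0467, edgeR). This call stood at the fold threshold and was lost in DESeq2 (adjusted p = 0.172), with protein-coding genes only, with limma-trend, and without sgRNA Ctrl replicate 1 (-0.24), sgNPM1A replicate 1 (-0.27) or sgNPM1A replicate 2 (-0.38). SLC7A1, or CAT1, the main arginine carrier of dividing cells, had 140.9 and 118.5 CPM against 115.1 and 120.8 CPM, which overlapped (log2FC -0.14, adjusted p = 0.270, edgeR). SLC7A7, SLC7A8 and SLC7A10 had at most 7.68 CPM in any library and adjusted p-values of 0.188 or more.

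**Figure D4:**
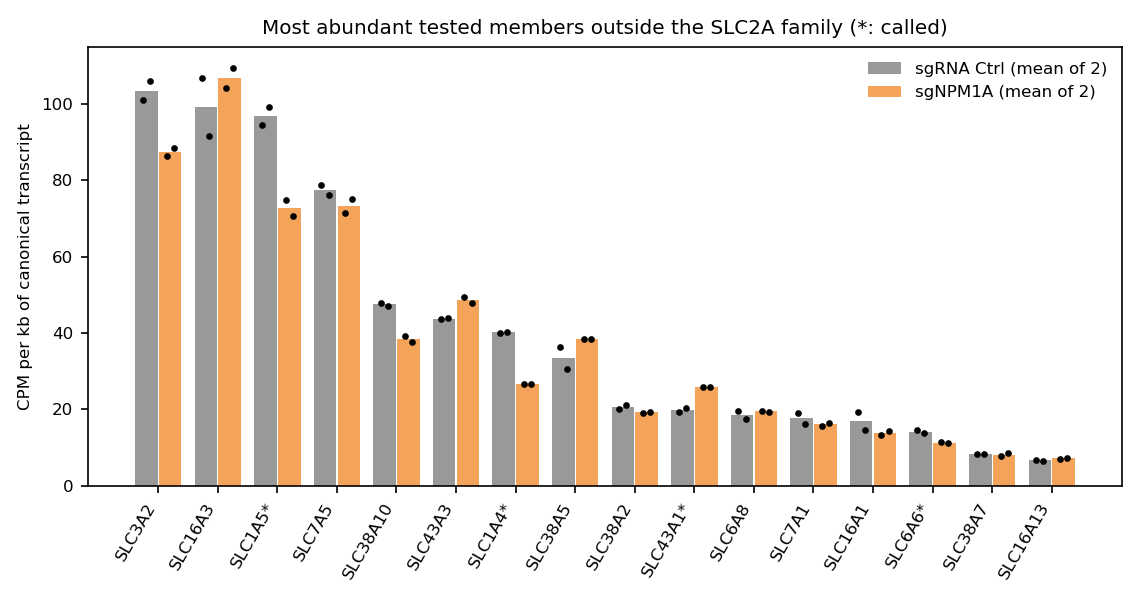
Mean level in CPM per kb of canonical transcript of the most abundant tested members outside the SLC2A family, grey for sgRNA Ctrl and orange for sgNPM1A, with a dot for each library and an asterisk at genes called. SLC3A2, SLC16A3, SLC1A5 and SLC7A5 are the tallest, and of these only SLC1A5 was called.

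SLC43A1 rose, and the neutral amino acid carriers of the SLC38A family did not pass the threshold in either direction. SLC43A1, or LAT3, a leucine carrier that works without SLC3A2 (chr11:57484534-57515702), had 48.8 and 51.4 CPM with sgRNA Ctrl and 65.2 and 65.1 CPM with sgNPM1A. Replicates were close and the groups apart, with a log2FC of 0.38 (SE 0.07, adjusted p = 0.00316, edgeR), called in each alternative fit. The ratio of SLC43A1 to SLC7A5 in CPM per kb was 0.246 and 0.268 with sgRNA Ctrl and 0.363 and 0.345 with sgNPM1A. SLC43A2, or LAT4, had 33.7 and 31.0 CPM against 29.6 and 34.8 CPM, with overlap (log2FC -0.01, adjusted p = 0.972, edgeR). SLC43A3, a purine nucleobase carrier, had 114.2 and 115.0 CPM against 129.4 and 125.7 CPM (log2FC 0.15, adjusted p = 0.108, edgeR), and other genes share 24.3% of its 50-base words.

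Of 7 tested SLC38A genes, 0 were called in edgeR's test, 2 had an unadjusted p under 0.05, and 0 were called by DESeq2, where SLC38A10 passed the adjusted p alone. SLC38A2, or SNAT2, the sodium-coupled importer that cells raise when amino acids run short, had 96.0 and 101.2 CPM with sgRNA Ctrl and 91.1 and 92.5 CPM with sgNPM1A (log2FC -0.10, adjusted p = 0.309, edgeR). SLC38A1, or SNAT1, a glutamine importer, had 17.9 and 17.5 CPM against 17.4 and 19.2 CPM, which overlapped. SLC38A5 had 72.3 and 60.8 CPM against 76.6 and 76.5 CPM (log2FC 0.20, adjusted p = 0.116, edgeR) and was called higher without sgRNA Ctrl replicate 1 (0.33, adjusted p = 0.0105). SLC38A10 was the member nearest to a call, with 215.1 and 211.6 CPM against 176.7 and 169.0 CPM, a fold of 1.23 (adjusted p = 0.00503, edgeR), and it was called lower with library size as the only scaling (-0.34). SLC38A9, the lysosomal arginine sensor upstream of mTORC1, had 11.2 and 12.7 CPM against 13.6 and 12.2 CPM, and SLC38A7, a lysosomal glutamine exporter, had 33.6 and 34.1 CPM against 31.1 and 34.9 CPM. Neither separated the groups.

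In the SLC6A family, carriers of neurotransmitters, taurine and creatine driven by sodium and chloride, 14 of 19 members were not tested, with at most 7 counts in a library. Of the 5 tested, SLC6A6, SLC6A9 and SLC6A11 fell and SLC6A12 rose, and only SLC6A6 among these had more than 3 CPM. SLC6A6, the taurine carrier, had 95.2 and 89.3 CPM with sgRNA Ctrl and 73.8 and 72.0 CPM with sgNPM1A (log2FC -0.34, SE 0.07, adjusted p = 0.00491, edgeR). SLC6A11, the GABA carrier GAT3, had 25 and 29 counts with sgRNA Ctrl and 5 and 8 counts with sgNPM1A, the largest decline among the members (log2FC -2.15, SE 0.40, adjusted p = 0.00249, edgeR). SLC6A9, the glycine carrier GlyT1, had 23 and 67 counts against 13 and 16 counts (log2FC -1.74, SE 0.47, adjusted p = 0.0196, edgeR). Its control libraries differed from each other by more than the lower of them differed from the sgNPM1A libraries. Of its 50-base words, 4.95% also occur in the overlapping gene CCDC24, and the strandedness of the counting is not given. CCDC24 was called lower too, with 58 and 68 counts against 43 and 40 counts (log2FC -0.72, adjusted p = 0.0335, edgeR). SLC6A12, the betaine carrier BGT1, had 4 and 6 counts against 15 and 15 counts (log2FC 1.45, SE 0.48, adjusted p = 0.0468, edgeR). SLC6A8, the creatine carrier and the most abundant member of the family per length, had 76.8 and 68.4 CPM against 76.7 and 76.4 CPM, with overlap (adjusted p = 0.520, edgeR).

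Among these calls, that of SLC6A11 was kept in each alternative that tested it. The call of SLC6A9 was lost without sgRNA Ctrl replicate 2 (-0.79, adjusted p = 0.230, edgeR), and that of SLC6A6 without sgRNA Ctrl replicate 1 (-0.29) or sgNPM1A replicate 2 (-0.32). SLC6A12 lost its call with DESeq2 (adjusted p = 0.358) and without any 1 library, with log2FC values of 1.20 without sgRNA Ctrl replicate 1, 1.75 without sgRNA Ctrl replicate 2 and 1.45 without either sgNPM1A library.

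The sequence upstream of the starts was searched in RefSeq's promoter windows (GRCh38.p14), which run from 250 bases before each start to 50 bases after it. Of the 83 members, 60 were found there, with 89 windows. The letters CACGTG, the E-box bound by MYC and related factors, were found on either strand in 12 of the 89 windows (13.5%) and in 7.26% of all 35116 windows. The letters TGATGNAA, the core of the element that ATF4 binds with C/EBP partners, were found in 7 of the 89 windows (7.87%) and in 3.62% of all windows. These are matches of letters, not measured binding, and no window shown holds both words. Among called members, the words were found before the starts of genes that moved either way. The windows of SLC1A3, which rose, and SLC1A5, which fell, hold TGATGCAA, and those of SLC43A1, which rose, and SLC16A9, which fell, hold CACGTG. The windows shown were picked by direction of change, and any link between word and direction was not tested. They are given as the bases before the start, 5′ to 3′ on the gene's strand, with the matched word in capitals. For SLC1A5 the start is one that RefSeq places inside the gene, and the window of another inner start holds CACGTG, while that of its outermost start holds neither word. SLC1A4, which fell, has TTGCATCA, the reverse complement of TGATGCAA, at a start inside the gene and neither word in the window of its outermost start.
SLC1A3, chr5:36596338-36596587, plus strand: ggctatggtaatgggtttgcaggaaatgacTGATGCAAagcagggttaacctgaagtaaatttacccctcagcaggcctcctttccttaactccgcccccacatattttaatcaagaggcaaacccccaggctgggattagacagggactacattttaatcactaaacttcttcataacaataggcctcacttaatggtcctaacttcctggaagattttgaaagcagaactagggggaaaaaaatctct
SLC1A5, chr19:46784815-46785064, minus strand: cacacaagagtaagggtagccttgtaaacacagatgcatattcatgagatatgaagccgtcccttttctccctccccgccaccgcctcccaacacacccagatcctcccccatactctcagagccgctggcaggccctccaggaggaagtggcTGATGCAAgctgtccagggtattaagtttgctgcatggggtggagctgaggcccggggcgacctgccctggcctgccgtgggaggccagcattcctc
SLC43A1, chr11:57515703-57515952, minus strand: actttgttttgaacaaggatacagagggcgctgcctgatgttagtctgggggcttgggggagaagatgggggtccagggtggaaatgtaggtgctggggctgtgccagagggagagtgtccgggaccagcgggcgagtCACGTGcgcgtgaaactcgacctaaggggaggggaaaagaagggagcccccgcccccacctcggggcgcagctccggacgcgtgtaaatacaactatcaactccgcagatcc
SLC16A9, chr10:59710080-59710329, minus strand: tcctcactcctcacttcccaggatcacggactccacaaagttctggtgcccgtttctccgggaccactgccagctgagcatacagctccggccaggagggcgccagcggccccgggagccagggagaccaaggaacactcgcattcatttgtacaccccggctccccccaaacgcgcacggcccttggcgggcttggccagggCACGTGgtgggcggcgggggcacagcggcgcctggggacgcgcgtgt

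Other genes of the same pathways were taken from lists chosen by function. Called were 42.9% of the tested partners and regulators and 30% of the tested sensing genes, beside 20.8% of all tested genes. For the lists of enzymes and of transcriptional control genes the shares were 25% and 10%. Of 12 partners and regulators of these carriers, 7 were tested, 1 rose and 2 fell. EMB, which encodes embigin, an ancillary subunit that carries MCTs to the surface, rose from 31.2 and 27.5 CPM to 46.0 and 56.8 CPM (log2FC 0.81, adjusted p = 0.000272, edgeR). BSG, the main MCT subunit basigin, had 786.8 and 758.9 CPM against 840.9 and 866.9 CPM (log2FC 0.14, adjusted p = 0.139, edgeR). TXNIP, an arrestin that removes GLUT1 from the surface, fell from 117.0 and 102.7 CPM to 83.4 and 87.0 CPM (log2FC -0.37, adjusted p = 0.00570, edgeR). STX1A, a syntaxin that binds some SLC6A carriers, also fell (log2FC -0.74).

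Of 21 genes of lysosomal amino acid sensing, 20 were tested, 4 rose and 2 fell. SESN3, a sestrin that restrains mTORC1, rose from 45.2 and 31.9 CPM to 124.1 and 144.3 CPM (log2FC 1.80, SE 0.13, adjusted p = 3.24e-06, edgeR). SESN1 and SESN2 were not called, with log2FC values of -0.10 and -0.07. RRAGD, a Rag GTPase, LAMTOR3, a Ragulator subunit, and SLC15A4, a lysosomal histidine and peptide carrier, rose by 0.50, 0.47 and 0.41 on the log2 scale. SLC15A3, the related lysosomal carrier, and CASTOR2, which resembles the arginine sensor CASTOR1, fell by 0.70 and by 0.97. The calls of RRAGD, SLC15A4 and CASTOR2 were lost in DESeq2, with adjusted p-values of 0.0535, 0.0991 and 0.0858.

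Enzymes that use or make the cargo included 24 tested genes of 26, of which 5 rose and 1 fell. GLUL, glutamine synthetase, rose from 131.1 and 113.4 CPM to 220.2 and 219.0 CPM (log2FC 0.85, SE 0.08, adjusted p = 1.47e-05, edgeR). HK3, a hexokinase of myeloid cells, rose at a low level from 41 and 37 counts to 89 and 82 counts (log2FC 1.01). LDHA, the subunit of lactate dehydrogenase that favours lactate, rose by 0.32, PFKFB3 by 0.42 and ALDH18A1 by 0.36 on the log2 scale. LDHA stood at the fold threshold, and limma-trend gave it an adjusted p of 0.191. PHGDH, the first enzyme of serine synthesis, fell from 56.0 and 79.5 CPM to 50.3 and 48.9 CPM (log2FC -0.45, adjusted p = 0.0256, edgeR). Its control libraries differed from each other by more than the lower of them differed from the sgNPM1A libraries. The 2 genes of this list that were not tested had at most 12 counts in any library.

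Of 10 genes that stand for transcriptional control of transporters, all were tested and 1 was called. This was CHAC1, an ATF4 target, which was lower (7.55 and 15.0 CPM against 6.60 and 4.90 CPM, log2FC -0.97, adjusted p = 0.0203, edgeR). The control libraries of CHAC1 also lay further apart than the lower of them lay from the sgNPM1A libraries. ATF4 itself had 499.7 and 622.7 CPM against 572.7 and 504.4 CPM, with overlap (log2FC -0.06, adjusted p = 0.712, edgeR). MYC had 410.4 and 403.4 CPM against 351.8 and 332.1 CPM, a fold of 1.19 (adjusted p = 0.0159, edgeR), below the fold threshold. MLXIPL, a glucose-responsive factor, had a log2FC of 0.32 (adjusted p = 0.0125, edgeR) and was just under it.

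**Figure D5:**
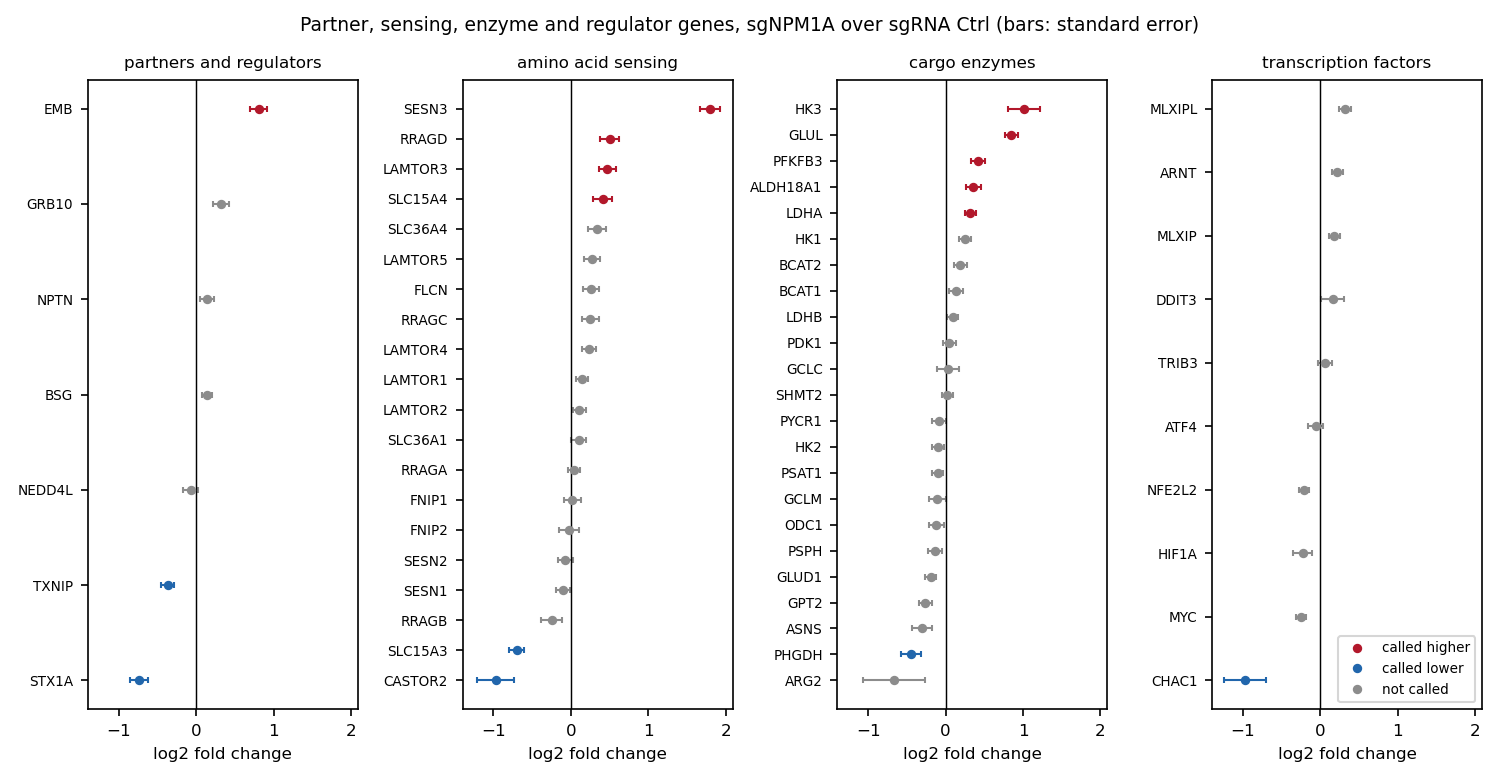
Log2 fold change (sgNPM1A over sgRNA Ctrl, bars for the SE from edgeR) of the tested partner, sensing, enzyme and transcriptional control genes reported here. Genes called higher are red, genes called lower are blue and the others grey. SESN3 stands apart with the largest rise at 1.80, followed by HK3, GLUL and EMB, while CHAC1 and CASTOR2 have the lowest values at -0.97.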

How the data were processed

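RNA-Seq libraries of OCI-AML3 cells were used, 2 with sgRNA Ctrl and 2 with sgNPM1A. Reads had been mapped by the authors to hg38 (STAR, Samtools), and the values they deposited are raw counts for each Ensembl gene. The counting program, its annotation and its use of strand are not given in the sources used here. The spike-ins named in the paper were not used. Symbols were found for 55646 of 58037 identifiers, biotypes and canonical transcript lengths come from a GENCODE annotation (all 83 members have a length), and positions from RefSeq on GRCh38.p14. The gene that RefSeq names SLC38A12 has another symbol in the table of names and was not included.

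Counts were tested with edgeR 4.0.16 in R 4.3.3: filterByExpr by group (minimum count 10), TMM, robust dispersions and quasi-likelihood tests (two-sided), adjusted by Benjamini-Hochberg over 15718 genes. Calls needed an adjusted p below 0.05 and a log2FC of at least 0.32 in either direction, the fold threshold in the paper's methods. Standard errors are the log2FC over the root of F. The test was also run on simulated data, whose outcome is not given here. Members and lists were chosen with earlier results of these data known. Named were all called members, the 2 most abundant tested members of each family per length and a fixed set of carriers, with a few further members chosen after their values were seen; in the other lists, called genes and a few others chosen after their values were seen. The value of 1 enzyme gene is not reported here. Alternatives were DESeq2 1.42.0, limma-trend (limma 3.58.1), other scalings, filters and thresholds, protein-coding genes only, a replicate block and leaving out each library, where the lone library is assumed to vary like the others.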

Additional observations from a re-analysis of the deposited data

How the results depend on the processing

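Of the 18 calls, 7 lie under a mean of 10 CPM, and with 2 libraries per condition each call leans on the shared variance. These 7 were among 19 tested members under that level, and 11 of the 27 others were called. The part of depth was not tested. Over the 14 alternative fits, 9 of the 18 called members were called in each fit that tested them. The numbers of members called higher and lower were 8 and 10, and over the leave-one-out fits they were between 5 and 8 and between 7 and 9. Without sgNPM1A replicate 2, 5 were higher and the members' median log2FC was -0.09, against 0.00 with all libraries and at most 0.07 without another library. A fold of at least 2 left 4 higher and 2 lower members, and 498 and 502 of all tested genes (1653 and 1619 at the main threshold). Of the partner, sensing, enzyme and transcriptional control genes it left 2 and 0 (10 and 6 at the main threshold). The leave-one-out counts were between 1224 and 1574 and between 1166 and 1571 for all genes, and between 8 and 12 and between 4 and 5 for the lists. Near 0, the sign of SLC38A1 turned without sgNPM1A replicate 2 (log2FC from -0.02 to 0.12 over the leave-one-out fits), that of SLC6A8 reached 0.00 without sgRNA Ctrl replicate 2 (up to 0.16), and that of SLC43A2 turned with protein-coding genes only (0.00), without sgRNA Ctrl replicate 1 (0.05) and without sgNPM1A replicate 1 (0.11, with -0.12 without sgNPM1A replicate 2). The cause was not tested. SLC6A12 also lost its call by library size only, upper quartile and no filter (adjusted p from 0.0511 to 0.0583, edgeR).

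The replicate number was not taken as a pairing, since neither the labels nor the methods say that it marks a shared batch. Same-numbered libraries deviated from their group means with a correlation of -0.13 across genes, and of -0.523 above 10 CPM. With the replicate block, 8 members were higher and 9 lower, with SLC7A2 losing its call (adjusted p = 0.0933, edgeR), 1637 and 1604 of all genes, and 12 and 6 of the other lists. The crossed block, chosen after seeing this correlation, gave 9 and 10 members, 1955 and 1918 of all genes, and 11 and 6 of the other lists.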
